A study of Homo sapiens with 79 samples.

Results

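The 9 genes described here are RLBP1, RPE65, LRAT, RDH5, RDH10, RBP3, RBP4, STRA6 and RGR, which encode enzymes of the visual cycle and proteins that bind, carry or take up retinoids. They were chosen by name for the role of their proteins and not by any measured value, though earlier results of these data were known. All 9 were present among the 24414 gene rows of the table.

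Retinal organoids were grown from H9, an established human embryonic stem cell line that here carried a GFP reporter of the photoreceptor factor CRX, and their cells were captured on Fluidigm C1 chips for full-length mRNA sequencing. The 79 samples are chip columns, of which 19 belong to day 60, 20 to day 90 and 20 to each of the 2 chips of day 200, called chips a and b. All groups came from the same reporter line and shared 10% fetal calf serum, T3 (thyroid hormone) at 40 ng/ml, taurine at 0.1 mM and retinoic acid at 0.5 µM, added from day 18 of differentiation. Retinoic acid is itself a retinoid, and no group without it was analysed. Since nothing says that columns are separate cultures, the spread between the 2 day 200 chips was the only measure of replicate error.

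The table holds raw read counts of 1976 cells, 578 of day 60, 661 of day 90, 356 of chip a and 381 of chip b. Per the paper, day 90 was run first with more concentrated spike-in RNA, and its cells were kept at a higher share of spike-in reads. The read cut-off for cells was lower at day 60. These differences cannot be told apart from those between days. The lowest depth of a cell was 88192 reads at day 60, 7549 at day 90, and 127130 and 125646 on chips a and b. Chip totals ran from 89204989 to 115731787 reads, column totals from 3414268 to 7999822 and the median reads per cell of a chip from 160343 to 251929. Levels are given as CPM, reads of a gene scaled to a total of 1000000 reads, summed over all cells of a chip or class, and the 95% intervals (exact Poisson for levels, exact binomial for shares of cells) cover counting error only, since the reads carry no molecular identifiers. Hardly any row had reads in 1 to 4 cells of a chip (14, 0, 6 and 0 rows, against 912, 1123, 754 and 808 rows with reads in exactly 5 cells). A gene listed at 0 on a chip may therefore have been read in up to 4 of its cells, which is 0.692% of the cells at day 60, 0.605% at day 90, and 1.12% and 1.05% on chips a and b.

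When light strikes a visual pigment, its 11-cis-retinal is turned into the all-trans form and must be rebuilt. In the classical visual cycle this happens in the retinal pigment epithelium (RPE), where LRAT joins retinol to a fatty acid for storage, RPE65 isomerizes the ester to 11-cis-retinol, RDH5 oxidizes it and the RLBP1 protein, CRALBP, binds the 11-cis product. Müller glia also hold CRALBP and are thought to serve cones by a route of their own. Outside the cells RBP3 carries retinoids between photoreceptors and their neighbours, while RBP4 carries retinol in blood and STRA6 is its receptor.

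RLBP1 lies on the reverse strand of chromosome 15 (chr15:89209869-89221614), RGR on the forward strand of chromosome 10 (chr10:84230666-84259960) and STRA6 on the reverse strand of chromosome 15 (chr15:74179466-74212267), all in GENCODE 44 on GRCh38. RPE65 lies at chr1:68428822-68449954 (reverse), LRAT at chr4:154626945-154753120 (forward), RDH5 at chr12:55720367-55724705 (forward), RBP3 at chr10:47348363-47357881 (forward) and RBP4 at chr10:93591687-93601744 (reverse). The promoters of RLBP1 and RGR are shown because these genes were read in the same cells and reached their highest levels in the same class. They are the RefSeq windows on GRCh38.p14 from 250 bases before to 50 bases after the transcript start, at chr15:89221530-89221829 on the reverse strand and chr10:84244803-84245102 on the forward strand, written 5′ to 3′ in the direction of the gene with TAATCC in capitals.
RLBP1: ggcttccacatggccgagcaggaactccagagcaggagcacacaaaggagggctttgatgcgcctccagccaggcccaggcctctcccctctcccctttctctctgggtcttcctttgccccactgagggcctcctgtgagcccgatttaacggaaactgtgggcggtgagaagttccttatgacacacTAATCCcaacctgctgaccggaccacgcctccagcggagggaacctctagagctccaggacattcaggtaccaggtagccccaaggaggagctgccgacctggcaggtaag
RGR: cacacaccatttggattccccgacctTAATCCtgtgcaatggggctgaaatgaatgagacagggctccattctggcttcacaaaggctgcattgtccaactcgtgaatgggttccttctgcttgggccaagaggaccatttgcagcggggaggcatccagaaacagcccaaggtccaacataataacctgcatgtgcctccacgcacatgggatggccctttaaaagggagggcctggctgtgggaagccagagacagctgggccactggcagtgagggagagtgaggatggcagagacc

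TAATCC is the letter pattern preferred by the homeobox factors OTX2 and CRX. It was searched on both strands (GGATTA on the other), and began 61 bases before the start of RLBP1 and 224 bases before the start of RGR, in the direction of the gene in both. Of 35116 promoter windows of the same length, 2234 (6.36%) held it. Among the 7 members with a window, it was otherwise found at 1 of the 5 STRA6 starts, on the other strand, and not in the windows of RPE65, LRAT, RDH5 or RBP4. The E-box CATGTG, of the kind MITF binds and also searched on both strands, was found once in the RLBP1 window, at 2 places in that of RGR and at 2 of the 5 STRA6 starts, against 11.1% of all windows. The E-box CACGTG, which reads the same on both strands and stood in 7.26% of all windows, was in none of the members' windows. RBP3 and RDH10 were not matched to a window.

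RLBP1 was close to absent at day 60 and was read in every column of the later chips. At day 60 its column levels ran from 0 to 26.7 CPM with a median of 0 CPM, and 12 of the 19 columns were at 0. At day 90 they ran from 37.97 to 369 CPM (median 135), on chip a from 44.2 to 531 CPM (median 189) and on chip b from 1.02 to 233 CPM (median 68.1). All 20 columns of day 90 and all 20 of chip a lay above all 19 of day 60, which held for 0.18% and 0.0659% of all rows tested. On chip b 18 of 20 columns did so, and 0.132% of rows had no overlap there. Summed over each chip the level was 3.39 CPM (3.05 to 3.76) at day 60, 156 CPM (153 to 158) at day 90, and 210.0 CPM (207 to 213) and 86.0 CPM (84.1 to 88.0) on chips a and b. The ratio to day 60 was 45.9 at day 90, and 61.9 and 25.4 on chips a and b, with 1 chip of day 200 above and 1 below day 90, and they differed 2.44-fold from each other. With each cell thinned to 50000 reads, RLBP1 was read in 1.38% of the day 60 cells (0.599 to 2.71), 25.6% at day 90 (22.3 to 29.2), and 26.1% (21.6 to 31.01) and 25.98% (21.7 to 30.7) on chips a and b. Without thinning the shares were 1.38%, 34.6%, 39.04% and 34.1%. The share of cells was thus close on the 3 later chips where the summed level was not. At day 60, 8 cells held all its reads and the top 3 of them held 86.8%.

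RGR, a retinal G protein-coupled receptor of RPE and Müller glia that binds all-trans-retinal and isomerizes it in light, had the same order of chips. Its columns ran from 0 to 9.66 CPM at day 60 (median 0), from 0 to 118 CPM at day 90 (median 30.3), and from 0 to 166 CPM (median 42.5) and from 0 to 96.8 CPM (median 13.2) on chips a and b. The groups overlapped, as 13 of 19 columns of day 60 and 2, 4 and 1 of the 20 columns on the later chips were at 0. Summed levels were 1.31 CPM at day 60, 42.2 at day 90, and 47.9 and 19.2 CPM on chips a and b, and the 2 day 200 chips differed 2.49-fold. Thinned shares of cells were 1.38%, 12.8%, 9.83% and 9.71%, and unthinned shares 1.73%, 17.4%, 15.4% and 12.6%. Of the 137 reads at day 60, 69.3% came from the top 3 of 10 cells.

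The enzymes specific to the RPE cycle were low. LRAT columns ran from 0 to 36.4 CPM at day 60 (median 0.522), from 0 to 85.2 CPM at day 90 (median 16.8), and from 0 to 82.2 CPM (median 1.95) and from 0 to 89.6 CPM (median 6.19) on chips a and b. Summed levels of LRAT were 3.94, 28.4, 15.6 and 14.5 CPM in the same order, so day 90 was highest and the 2 day 200 chips were within 1.08-fold of each other. The top 3 cells held 71.7% of its reads at day 60, 24.6% at day 90, and 51.8% and 40.05% on chips a and b. On each chip but day 90, 3 cells thus held at least 40.05% of the LRAT reads. Thinned shares of cells with an LRAT read were 3.29%, 9.01%, 5.34% and 6.82%, and unthinned shares 6.06%, 13.5%, 10.4% and 10.8%.

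RPE65, the isomerase, was read in 5 cells at day 60 and in 29 at day 90, and was listed at 0 on both day 200 chips. Its columns ran from 0 to 8.73 CPM at day 60 and from 0 to 33.6 CPM at day 90 (median 1.59), and summed levels were 0.743 CPM and 5.46 CPM. The top 3 cells held 97.4% of its reads at day 60 and 52.8% at day 90. Of the 29 cells of day 90, 22 also had a read of RLBP1, 22 of STRA6, 19 of RGR and 11 of LRAT. Reads of RDH5 were in 3 of them, of RBP4 in 2 and of TYRP1, an enzyme of melanin synthesis, in 23. Of the 5 cells of day 60, 0 had a read of RLBP1, RGR or TYRP1 and 1 had a read of STRA6. Over all cells of day 90 the shares with a read were 34.6% for RLBP1, 53.9% for STRA6, 17.4% for RGR and 13.5% for LRAT. They were 3.33% for RDH5 and 12.7% for RBP4, and the share for TYRP1 was not computed. The 10 genes of the RPE marker list were above 0 on every chip, with summed levels of 334 CPM at day 60, 3524 at day 90, and 1180 and 907 CPM on chips a and b. The separate RPE check list of 8 genes (MITF, TYR, MLANA, TRPM1, SLC45A2, OCA2, KCNJ13 and CDH3) summed to 33.1, 231, 81.3 and 62.4 CPM in that order. Of these, MLANA, TRPM1 and SLC45A2 were at 0 at day 60, MLANA, SLC45A2 and OCA2 on chip a, and SLC45A2 on chip b. In sums over a chip, fewer cells of a type and less RNA per cell cannot be told apart.

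RDH5, the 11-cis-retinol dehydrogenase, was listed at 0 at day 60. It was read in 22 cells of day 90, 6 of chip a and 6 of chip b, with summed levels of 3.39, 8.94 and 4.20 CPM and highest columns of 14.1, 81.5 and 45.1 CPM. On chip a 4 of 20 columns and on chip b 5 of 20 had any read, and the top 3 cells held 89.0% and 80.0% of the reads there. An annotated read-through transcript of the neighbouring gene BLOC1S1 overlaps 63.2% of the RDH5 exon bases on the same strand. It was looked up by its identifier only, so whether it has a row of its own is not known. Its reads and those of RDH5 could have been left uncounted where they overlap, and the RDH5 level is uncertain.

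RDH10, a retinol dehydrogenase that makes all-trans-retinal, the precursor of retinoic acid, had a summed level that was higher on each later day. Its columns ran from 6.84 to 61.9 CPM at day 60 (median 18.5), from 26.04 to 131 CPM at day 90 (median 82.2), and from 46.4 to 238 CPM (median 156) and from 45.3 to 315.5 CPM (median 136) on chips a and b. No column was at 0, and 15 of 20 columns of day 90, 17 of chip a and 18 of chip b lay above all of day 60. Summed levels were 22.3 CPM (21.4 to 23.2), 82.9 CPM (81.3 to 84.6), 141 CPM (139 to 143) and 148 CPM (146 to 151), and the ratios to day 60 were 3.72, 6.34 and 6.67. The day 200 chips thus stood closer to each other than either did to day 90. Thinned shares of cells were 15.6%, 34.7%, 36.2% and 43.04%, and unthinned shares 18.5%, 43.6%, 48.6% and 52.2%.

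RBP3, also called IRBP, is secreted by photoreceptors into the space between them and the RPE. Its columns ran from 0 to 22.4 CPM at day 60 (median 3.26), from 5.26 to 84.6 CPM at day 90 (median 29.9), and from 0 to 106 CPM (median 19.7) and from 0.202 to 52.8 CPM (median 9.20) on chips a and b. All 20 columns of day 90 were above the median of day 60, and 12 of them above all of its columns. Summed levels were 5.00, 33.2, 30.5 and 15.9 CPM, the thinned shares of cells 3.29%, 18.6%, 11.5% and 7.61%, and the unthinned shares 4.50%, 25.6%, 16.0% and 10.2%. On the day 200 chips both the level and the share were higher on chip a.

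RBP4 and STRA6, the carrier and its receptor, did not have this order. RBP4 columns ran from 0 to 154 CPM at day 60 (median 18.3), from 0 to 59.4 CPM at day 90 (median 23.7), and from 0 to 144 CPM (median 0.932) and from 0 to 50.1 CPM (median 2.47) on chips a and b, and 10 of 20 columns were at 0 on each day 200 chip. Summed levels were 25.6, 25.9, 27.96 and 10.1 CPM, with 41.4%, 19.5%, 43.5% and 64.03% of the reads in the top 3 cells, and thinned shares of cells were 6.23%, 10.8%, 4.49% and 2.62% (unthinned 7.79%, 12.7%, 6.46% and 3.15%). STRA6 columns ran from 37.0 to 217 CPM at day 60 (median 122), from 51.98 to 230 CPM at day 90 (median 143), and from 0 to 443 CPM (median 128) and from 4.39 to 299 CPM (median 118) on chips a and b. Its summed levels were 122, 138, 128 and 125 CPM, the most even of the 9 members over the chips. Behind the even level the thinned share of cells with a STRA6 read was 41.9% at day 60 and 45.5% at day 90 but 16.3% (12.6 to 20.5) and 28.3% (23.9 to 33.2) on chips a and b, and the spread of its columns was wider on the day 200 chips. The unthinned shares were 50.5%, 53.9%, 27.5% and 35.2%. Chip a, with the lowest share, also had the fewest genes read per cell (median 2363.5, against 3492 to 3813.5 on the others), the highest median depth and 24 called doublets (1 or 2 on the others), and their part in the shares was not tested. Of a list of 6 liver and yolk sac genes, which RBP4 is best known beside, 3 were in the table (ALB, APOA1 and SERPINA1), with summed levels of 2.57, 0.769, 0 and 0 CPM on the 4 chips.

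**Figure D1:**
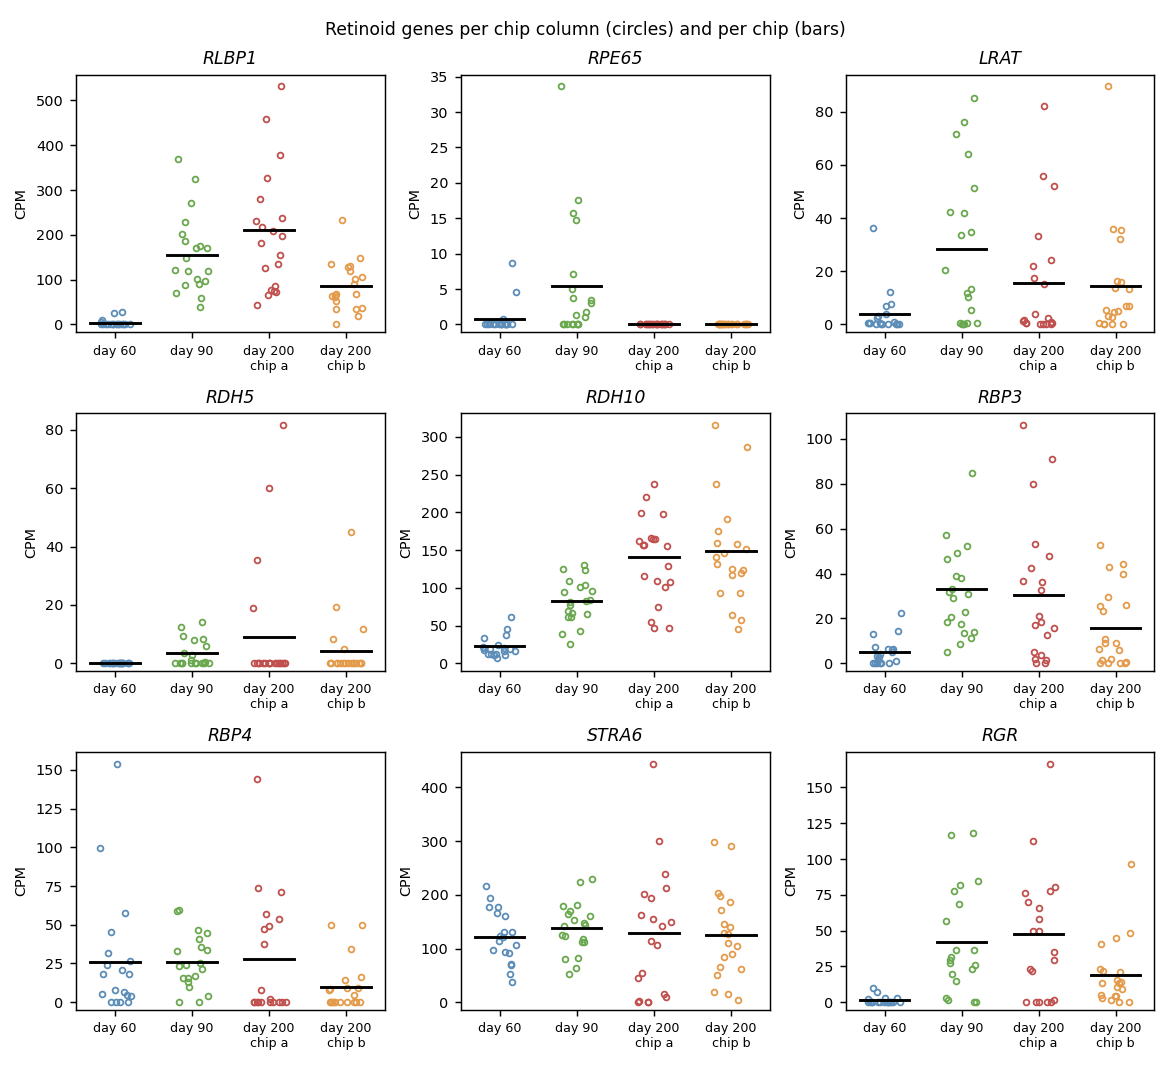
Level in CPM of each of the 9 genes in each chip column (circles) and in the summed reads of the chip (bars) at day 60, day 90 and on the 2 chips of day 200, with a separate linear axis for each gene. RLBP1, RGR and RDH10 are low at day 60 and higher on the later chips, STRA6 is at 122 to 138 CPM on all 4 chips with a wider scatter of columns at day 200, and RPE65 is listed at 0 on both day 200 chips.

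Compared per kilobase of exon, which is needed between genes, STRA6 was highest at day 60 (45.2 CPM per kb), followed by RBP4 (23.97), RDH10 (5.63) and RLBP1 (2.07). At day 90 the order was RLBP1 (95.04 CPM per kb), STRA6 (51.01), RBP4 (24.2), RDH10 (20.9) and RGR (18.9). On chip a RLBP1 reached 128 CPM per kb against 47.3 for STRA6 and 35.7 for RDH10, and on chip b RLBP1 reached 52.5 against 46.3 and 37.5. The lead of RLBP1 over STRA6 on chip b was thus small beside the difference between the 2 chips for RLBP1.

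To ask whether the time points differed beyond the chips' spread, the chip sums were compared by edgeR's quasi-likelihood test over 16689 rows with a mean of at least 1 CPM, with Benjamini-Hochberg adjustment over all of them. At an adjusted p under 0.05, 0 rows were called for day 200 against day 60 (0% higher and 0% lower), 0 for day 90 against day 60 and 0 for day 200 against day 90, and so 0 of the 9 members. At an unadjusted p under 0.05 there were 1305, 975 and 633 rows in the same order, and DESeq2 called 2719, 1989 and 1277. For day 200 against day 60 the log2 fold change was 5.37 for RLBP1 (edgeR adjusted p = 0.368), 4.60 for RGR (adjusted p = 0.414), 2.62 for RDH10 (adjusted p = 0.362), 2.13 for RBP3 (adjusted p = 0.557) and 1.86 for LRAT (adjusted p = 0.505). It was −0.51 for RBP4 (edgeR adjusted p = 0.980) and −0.03 for STRA6 (adjusted p = 1). RPE65 and RDH5 were listed at 0 in 1 of the groups, so no fold is given, and their adjusted p by edgeR was 0.757 and 0.473. For day 90 against day 60 the log2 fold change by edgeR was 5.52 for RLBP1 (adjusted p = 0.695) and 5.02 for RGR (adjusted p = 0.700), and for day 200 against day 90 the adjusted p of every member was 1. DESeq2 called 6 of the 9 members for day 200 against day 60, 6 for day 90 against day 60, and for day 200 against day 90 it called 3, RDH10 higher and RPE65 and LRAT lower. The RPE65 call rests on the listed 0 of day 200, where reads in up to 4 cells of a chip may be missing. Among the 14165 rows above 0 on all 4 chips, a choice made after the data were seen, edgeR called 166 rows and RLBP1 (adjusted p = 0.00928), RDH10 (adjusted p = 0.0177) and RGR (adjusted p = 0.0284) with them. With 1 chip at day 60 and at day 90 and 1 residual degree of freedom, the calls thus changed with the rows entered and with the tool.

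By size alone, a row counted as higher when its level in log2(CPM + 1) was at least 1 above day 60 on both day 200 chips. This held for 6 of the 9 members, RLBP1, LRAT, RDH5, RDH10, RBP3 and RGR, and for 7.18% of all 16689 rows. With 5 CPM added in place of 1, RDH5 no longer passed and the other 5 did. The converse, at least 1 below on both chips, held for 0 of the 9 members and for 5.57% of rows. The median difference from day 60 over the members was 2.39 and 1.65 on chips a and b on this log2 scale, against 0 and 0.06 over all rows, and it was 2.13 at day 90, against 0.01. RBP4 was 0.12 above day 60 on chip a and 1.27 below on chip b, and STRA6 was within 0.07 on both.

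The cells were grouped into 14 clusters on 2420 genes with no member among them, and 13 clusters were named from 9 of the study's own lists of 10 genes, which were chosen on these cells and hold no member. The rod list holds VSX1, LHX4 and NEUROD4, known from bipolar cells and precursors, beside rod genes such as NRL and GNAT1. Of the 269 cells named from it, 209 were in a cluster with VSX1, LHX4 and NEUROD4 and no NRL or GNAT1 among its 10 leading genes. It is called the VSX1-led cluster here and is not read as rods, and rod-like is kept for the GNAT1-led cluster (60 cells). RLBP1 was highest in the RPE-like class (97 cells, all 10 list genes as markers), at 968 CPM (955 to 981), followed by the Müller glia-like class (553 cells) at 199 CPM (196 to 201). On each of the 4 chips the RPE-like level was above the Müller glia-like level, with 263 against 0.287 CPM at day 60, 902 against 84.8 CPM at day 90, and 1722 against 484 CPM and 796 against 173 CPM on chips a and b. The RPE-like class held 4.91% of the cells and 43.9% of the RLBP1 reads, and the Müller glia-like class 27.99% of the cells and 48.2% of the reads. At 50000 reads per cell RLBP1 was read in 91.8% of RPE-like and 28.4% of Müller glia-like cells, and in 3.27% of ganglion cell-like (RGC-like) cells and 11.7% of cells of the rod-like cluster, types that are not known to express it (unthinned 91.8%, 34.0%, 7.19% and 30.0%, with median depths of 187992, 180578, 163460 and 197911.5 reads). The RPE-like class had 4, 78, 9 and 6 cells on the 4 chips, so most of the reads of day 90 (84.4%) came from it, whereas on the day 200 chips 71.5% and 73.9% came from the Müller glia-like class.

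Within the Müller glia-like class RLBP1 was uneven. The cluster led by GPX3, TF and WIF1 (80 cells, 60 of them of chip a) had 652 CPM, the largest cluster, with COL2A1 and SFRP2 among its leading genes (369 cells), 113 CPM and the cluster led by IGFBP6 and ABCB1 (104 cells) 85.5 CPM. On chip a their levels were 708, 226 and 262 CPM and on chip b 523, 210.2 and 92.1 CPM, so the GPX3-led cluster was highest on both. In the largest of these clusters, which had at least 42 cells on every chip, RLBP1 was read in 1 of 137 cells at day 60, in 44 of 121 at day 90, in 18 of 42 on chip a and in 37 of 69 on chip b, with 0.331, 90.3, 226 and 210.2 CPM. Whether the cells of this cluster were of 1 kind on all chips was not tested.

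In the edgeR fit of the Müller glia-like sums, day 200 against day 60, 23 of 16068 rows were called higher (0.143%) and 7 lower (0.0436%). RLBP1 was the 1 member called of the 7 tested by this fit, with a log2 fold change of 10.15 (adjusted p = 0.0188) from 7 reads, all in 1 cell, at day 60, and it was called under the other 4 settings tried as well, with adjusted p from 5.82e-35 by DESeq2 to 0.0121 by edgeR without TMM. Those settings called from 51 rows, by edgeR without TMM, to 553 rows, by DESeq2, in place of 30. In the Müller glia-like cells the RPE check list summed to between 39.4 and 60.1 CPM on the 4 chips (1 to 3 of its 8 genes at 0), and the Müller glia check list (GLUL, AQP4, SLC1A3, KCNJ10, CA2, CA14, APOE and FRZB, all above 0) in order of the chips to 406, 777, 1734 and 1599.7 CPM, higher on the chips where RLBP1 was higher than at day 60. The Müller glia check list was also higher after day 60 in other classes. It summed to 408, 624, 1691 and 1028 CPM in cone-like cells and to 401, 1343, 2022 and 1255 CPM in RPE-like cells. Over all chips its sum was 1384 CPM in the RPE-like class, against 1192 CPM in the Müller glia-like class. Within the Müller glia-like class the 10 genes of the mitotic list summed to 1182 CPM at day 60 and to 395 to 516 CPM on the later chips, and those of the RGC list to 976 CPM and to 240.5 to 392 CPM. The part of these lists in the RLBP1 result was not tested. At day 60, 137 of the 153 cells of the class were in the cluster with COL2A1, SFRP2 and CCND1 among its leading genes. The Müller glia check list summed to 399 CPM over all cells of day 60, near the 406 CPM of the class. The paper reports genes of retinal progenitors in its Müller glia cluster. Whether these day 60 cells were progenitors or glia was not tested, so the RLBP1 difference is not read as a change within glia. In the Müller glia-like fit RDH10 had a log2 fold change of 2.42 (edgeR adjusted p = 0.0971), RGR 6.52 (adjusted p = 0.154) and STRA6 −0.18 (adjusted p = 1). RDH10 and RGR were called as well by DESeq2 (adjusted p = 7.64e-07 and 4.48e-06) and by edgeR on rows of at least 10 CPM (adjusted p = 0.0184 and 0.0397). DESeq2 called 553 of 16068 rows and 3 of 7 members, and edgeR at 10 CPM 171 of 9938 rows and 3 of 4 members. The RDH10 level of the class was 48.4 CPM at day 60, 192 at day 90, and 279 and 238 CPM on chips a and b, and its thinned share of cells 26.8%, 54.7%, 60.4% and 66.7%. The different clusters that make up the class were not in the same shares on the chips, and the share of the GPX3-led cluster was 2 of 153, 9 of 160, 60 of 111 and 9 of 129 cells in order of the chips.

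RGR was highest in the RPE-like class, with 294 CPM (287 to 302) and a thinned share of 62.9% of cells. That class held 54.4% of the RGR reads of all chips, but the split differed between chips. It was 91.9% at day 90 against 10.9% at day 60, and the chips of day 200 had 33.5% (a) and 7.71% (b). The Müller glia-like class held 36.6% and 36.8% of the RGR reads of those 2 chips. RGR stood at 30.4 CPM in the VSX1-led cluster and 22.2 CPM in the Müller glia-like class, and these 2 were not in a fixed order, at 3.63 against 0.41 CPM at day 60, 11.5 against 6.25 CPM at day 90, and 54.8 against 56.5 CPM and 59.1 against 19.2 CPM on chips a and b. A total of 21 of the 209 cells of the VSX1-led cluster had a read, and 11 had at least 5. The rod-like cluster had 5.39 CPM. The RGC-like class, at 0.07 CPM, was lowest.

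LRAT was highest in the RPE-like class as well, at 165 CPM (159 to 170.3) with a thinned share of 46.4%, followed by the matrix-rich ECM-like class at 50.5 CPM, with 10 of 85 cells at 5 reads or more. The order of these 2 changed between chips, since the ECM-like level was above the RPE-like level at day 60 (85.5 against 18.2 CPM, from 16 and 4 cells) and on chip a (249 against 214 CPM, from 6 and 9 cells), and below it at day 90 and on chip b. RDH5 stood at 24.1 CPM in the RPE-like class and 54.8 CPM in the GNAT1-led rod-like cluster, where 3 cells held 5 reads or more. RPE65 had its highest level in the cluster 7-like class (17.5 CPM), which rested on 2 cells, and 12.7 CPM in the RPE-like class, where 14 of 97 cells had a read, all of them at day 90. Of the 29 day 90 cells with an RPE65 read, 14 were thus RPE-like, 5 were Müller glia-like and 10 were of other classes. RLBP1, RGR and LRAT were thus found in 91.8%, 62.9% and 46.4% of the thinned RPE-like cells, and RPE65 and RDH5 in 12.4% and 10.3%. RPE65 on the day 200 chips and RDH5 at day 60 were listed at 0, where reads in up to 4 cells of a chip may be missing. The RPE-like class had 9 and 6 cells on chips a and b and 4 at day 60. The RPE65 and RDH5 shares may therefore be too low.

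**Figure D2:**
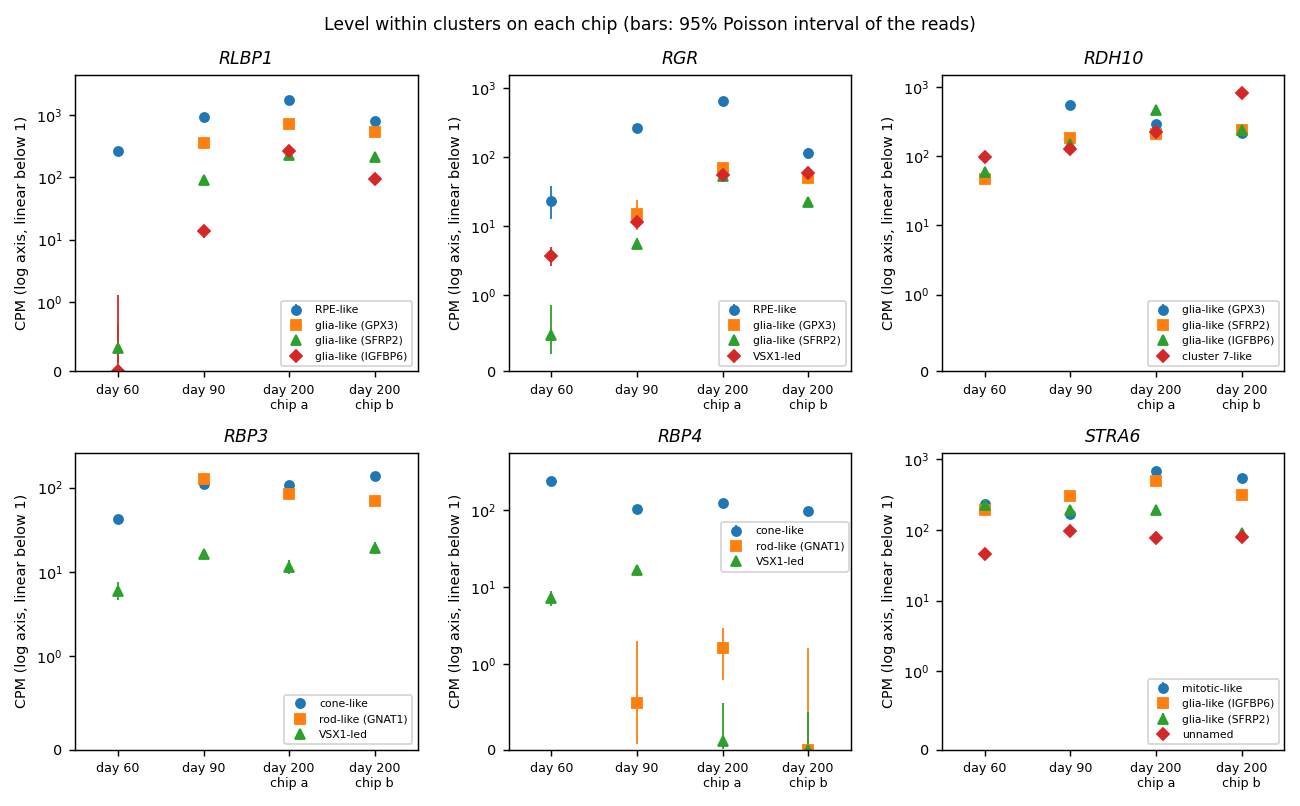
Level in CPM of RLBP1, RGR, RDH10, RBP3, RBP4 and STRA6 in selected clusters on each chip (points, clusters with at least 4 cells there), with the 95% Poisson interval of the reads as bars, on an axis that is logarithmic above 1 CPM and linear below. RLBP1 is highest in the RPE-like cluster on every chip and next highest in the GPX3-led glia-like cluster at day 90 and on both day 200 chips, and RBP4 stands at 98.0 to 240.4 CPM in the cone-like cluster, above the VSX1-led cluster and the GNAT1-led rod-like cluster.

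RDH10 was read mainly in the Müller glia-like class, which held 57.1% of its reads at 197 CPM (195 to 200.1). The highest level, 253 CPM, was in the cluster 7-like class (70 cells, led by AOC2 and CPAMD8), at 97.7, 125, 221 and 830.2 CPM in order of the chips from 8 to 31 cells each. The mitotic-like class had 95.1 CPM and the RPE-like class 85.8 CPM, and the RGC-like class was lowest at 8.33 CPM, with a thinned share of 5.88% of its cells against 50.9% of Müller glia-like cells. The Müller glia-like and cluster 7-like levels were each higher on both day 200 chips than at day 60.

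Over all chips RBP3 and RBP4 were both highest in the cone-like class, and RBP3 but not RBP4 was next highest in the rod-like cluster. RBP3 stood at 100.4 CPM in the cone-like class (240 cells), which held 63.5% of its reads, and at 94.1 CPM in the GNAT1-led rod-like cluster, against 12.7 CPM in the VSX1-led cluster and 3.21 CPM in the Müller glia-like class. In the cone-like class its level was 42.5 CPM at day 60 and 110.5, 107 and 136 CPM on the later chips, and thinned shares of cells were 31.9%, 47.1%, 30.0% and 46.7%. RBP4 had 80.5% of its reads in the cone-like class, at 135 CPM (132 to 139), against at most 12.9 CPM in any other class over all chips and 1.03 CPM in the rod-like cluster. On chip a alone the 9 RPE-like cells had 103 CPM. Its cone-like level was 240.4 CPM at day 60, 106 at day 90, and 125 and 98.0 CPM on chips a and b, and its thinned share of cone-like cells was 61.7%, 38.2%, 13.3% and 20.0%. In the Müller glia-like class the thinned share of cells was 2.17% for RBP4 and 3.99% for RBP3 (3.44% and 7.05% unthinned), and the RPE-like class was higher, at 12.9 CPM of RBP4 and 16.3 CPM of RBP3. Within the cone-like cells, edgeR called 40 of 15387 rows higher at day 200 than at day 60 (0.26%) and 22 lower (0.143%), and 0 of the 8 members tested. The log2 fold change was 1.57 for RBP3 (edgeR adjusted p = 0.917) and −1.04 for RBP4 (adjusted p = 0.977). At an unadjusted p under 0.05 there were 804 rows, RBP3 among them, and DESeq2 called 382.

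STRA6, the receptor, was not restricted to the class of its best known site, the RPE. Its highest level was in the mitotic-like class (101 cells) at 329 CPM, with 237, 171, 688 and 546 CPM on the chips, of which the day 200 values came from 9 and 7 cells. It stood at 207 CPM in both the Müller glia-like and ECM-like classes, 206 CPM in the cluster 7-like class and 161 CPM in the RPE-like class, and 15.3 CPM in the RGC-like class. In the Müller glia-like class its level was 224, 214, 202 and 193 CPM on the chips while its thinned share of cells was 58.8%, 49.7%, 24.3% and 40.3%. The RPE-like class had no STRA6 read in its 9 cells of chip a.

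**Figure D3:**
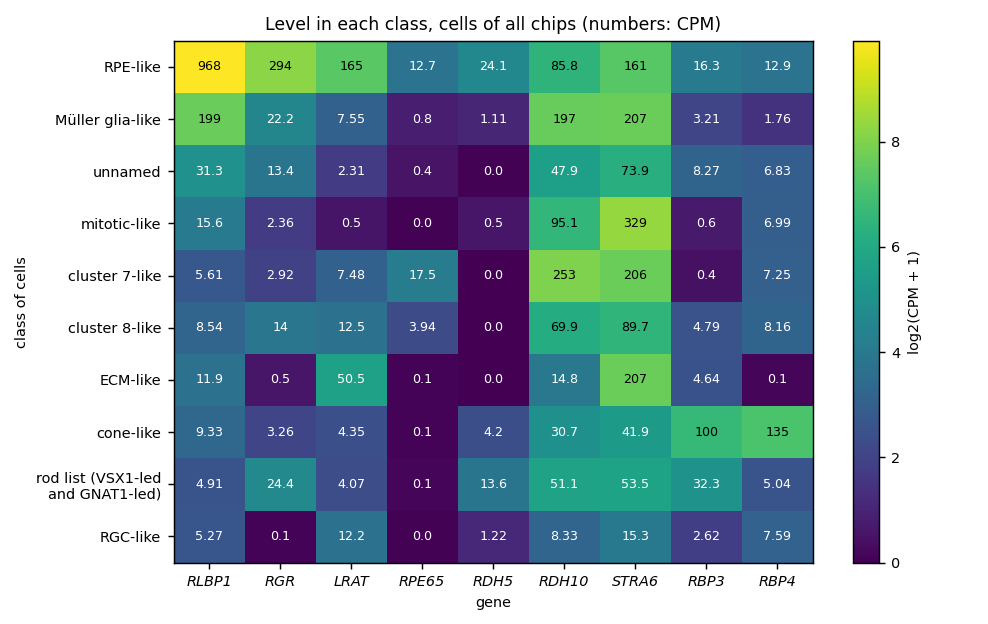
Heat map of the level of the 9 genes (columns) in the 10 classes of cells (rows), summed over the 4 chips, coloured by log2(CPM + 1) with the CPM written in each field and the row of the rod list joining the VSX1-led and GNAT1-led clusters. RLBP1, RGR, LRAT and RDH5 are highest in the RPE-like class, RBP3 and RBP4 in the cone-like class, RDH10 and RPE65 in the cluster 7-like class, and STRA6 in the mitotic-like class. The GNAT1-led cluster taken by itself, which is not shown as a row, has more RDH5 than the RPE-like class.

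Reads of members in the same cell were counted at 5 reads or more, without use of the clusters. RLBP1 was read so in 295 cells, of which 133 (45.1%, 39.3 to 50.96) also held RDH10, against 23.8% of the other cells, and 84 (28.5%, 23.4 to 34.0) held RGR, against 2.91%. From the other side, 84 of the 133 RGR cells (63.2%, 54.4 to 71.3) held RLBP1, against 11.4% of the rest. These pooled shares join unlike chips, as day 60 gave 7 of the 295 RLBP1 cells and 571 of the 1681 others. For RDH10 they were 38.3% against 26.5% at day 90, 51.4% against 26.6% on chip a and 52.3% against 36.9% on chip b. At day 60, 1 of 7 RLBP1 cells held RDH10, against 13.1% of the others. Pairs given without a split by chip carry the same limit. LRAT was with RLBP1 in 40 of 89 cells (44.9%, 34.4 to 55.9), against 13.5% of the rest, but this differed between chips, with 0 of 7 cells at day 60, 28 of 44 at day 90, 7 of 15 on chip a and 5 of 23 on chip b, where the share of 21.7% was close to the 22.6% of the rest. RPE65 was with RLBP1 in 10 of 17 cells (58.8%, 32.9 to 81.6), with LRAT in 7 and with RBP3 in 0. RDH5, in 24 cells, was with RLBP1 in 14 (58.3%, 36.6 to 77.9). From the other side, RLBP1 cells held RPE65 in 3.39% and RDH5 in 4.75% of cases, against 0.416% and 0.595% of the other cells. Of the other carriers, RBP4 was with RBP3 in 37 of 104 cells (35.6%, 26.4 to 45.6; 7.26% of the rest) and RLBP1 cells held RBP3 in 6.78% and RBP4 in 2.37% of cases, against 9.10% and 5.77% of the other cells. At 1 read or more after thinning, RLBP1 cells held RBP3 in 11.4% and the other cells in 10.5%, so this order turned, and RBP4 in 4.89% against 7.18%. RDH10 and STRA6 were together in 214 cells, 40.2% of the RDH10 cells (35.96 to 44.4) and 36.1% of the STRA6 cells. No member reached 5 reads in 757 cells (38.3%), and 154 cells (7.79%) had 3 members or more, 1.21% of the cells at day 60, 13.2% at day 90, and 6.46% and 9.71% on chips a and b. The most in any cell was 7, at day 90.

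**Figure D4:**
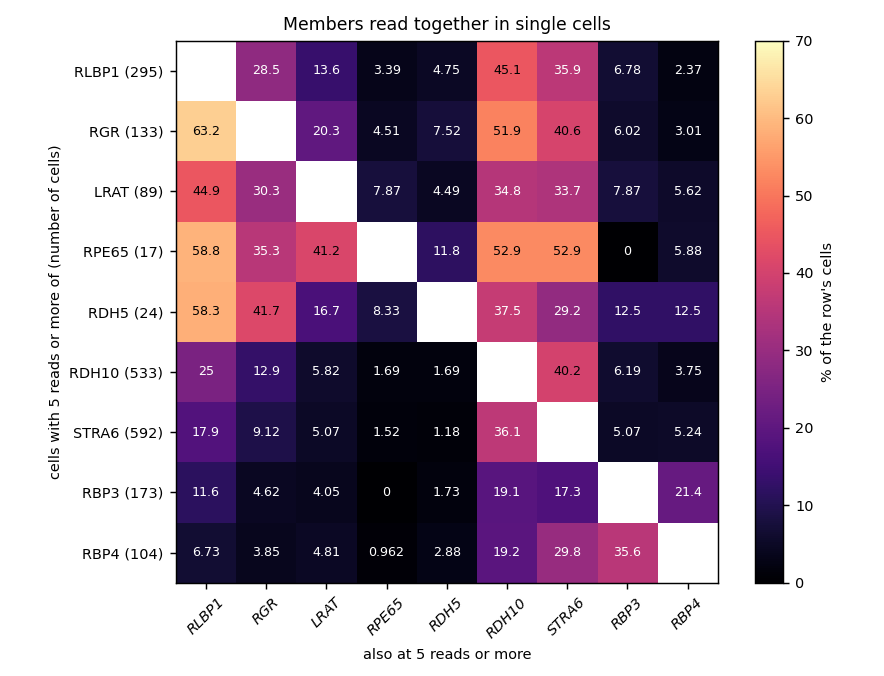
Share of the cells holding at least 5 reads of one gene (rows) that also hold at least 5 reads of another (columns), over all 1976 cells. RGR cells hold RLBP1 in 63.2% of cases and RBP4 cells hold RBP3 in 35.6%, whereas RLBP1 cells hold RBP4 in 2.37%.

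For the 7 members with a mean of at least 5 CPM, the genes of most similar level were taken over 32 points, the classes on each chip with at least 10 cells, among 10314 genes. The points share chips and depth, so the Pearson r of log2(CPM + 1) is a description. For RLBP1 the nearest were NPFFR1 (r = 0.802), SFRP5 (0.784) and RGR (0.761), and for RGR they were EPAS1 (0.794), RLBP1 (0.761) and SOX6 (0.748). For RBP3 they were the photoreceptor genes GNGT2 (0.897) and TULP1 (0.877) and, between these, PCBP4 (0.885). For RBP4 they were GNAI3 (0.713), LMOD1 (0.685) and AC022893.2 (0.681), for LRAT ST3GAL1 (0.662), PDGFRA (0.632) and LAMB1 (0.626), for RDH10 NDP (0.755), CRYL1 (0.740) and P3H2 (0.736), and for STRA6 DIAPH2 (0.847) and PRDX6 (0.827). Over the 1976 single cells the nearest gene was TRPM1, a pigment cell channel, for RLBP1 (r = 0.485) and LRAT (0.380), RNASE1 for RGR (0.455), the photoreceptor gene PDC for RBP3 (0.519), MPP4 for RBP4 (0.339), WIF1 for RDH10 (0.346) and HES1 for STRA6 (0.309).

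Of 36 other genes of retinoid handling, 31 were in the table and 26 were tested, and by the rule of size at day 200 against day 60, 5 were higher and 1 was lower, with medians of 0.27 and 0.37 on the log2(CPM + 1) scale on chips a and b. In visual cycle and retinal reduction 2 of 7 tested were higher, ABCA4, the retinal flippase of photoreceptor discs, at 6.72, 66.03, 94.5 and 30.7 CPM in order of the chips, and RDH12, a photoreceptor retinol dehydrogenase, listed at 0 at day 60 and at 9.34, 42.4 and 8.54 CPM thereafter. In binding and transport 2 of 8 were higher, SCARB1, a scavenger receptor that takes up carotenoids, at 18.2, 67.7, 154.5 and 145 CPM, and TTR, the partner of RBP4 in blood, at 11.5, 296, 51.1 and 27.3 CPM, while RBP7 was lower at 3.27, 3.396, 0 and 0.336 CPM. Of the 6 genes of retinoic acid synthesis and breakdown 0 passed the rule, and of the 5 receptors RXRG, a retinoid X receptor of cones, was higher at 7.35, 39.7, 43.9 and 20.9 CPM. Within the Müller glia-like cells SCARB1 was called higher by edgeR (log2 fold change 3.71, adjusted p = 0.0396), and within the cone-like cells RDH12 (adjusted p = 0.0035, day 60 at 0) was called higher and CRABP1, a retinoic acid binding protein, lower (log2 fold change −3.42, adjusted p = 0.0165). With rows of at least 10 CPM both cone-like calls were lost, with edgeR adjusted p of 0.159 for RDH12 and 0.193 for CRABP1. AWAT2, SDR16C5, DHRS9, CYP26C1 and RXRB were not analysed here.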

How the data were processed

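Organoids of day 60, day 90 and day 200 were dissociated and single cells captured on C1 chips, with SMART-Seq v4 full-length cDNA. Per the labels and the methods, the authors trimmed reads (Trimmomatic 0.33), aligned them to GRCh38.p7 (STAR 2.4.0) and counted reads per gene (HTSeq 0.6), and the deposited table holds raw counts per cell. The strand setting of the counting was not given in the sources used here. The 9 genes and all lists were chosen with earlier results of these data known.

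All 1976 cells were kept, and the called doublets (1, 2, 24 and 1 per chip, scrublet in scanpy 1.11.5) stayed in. The row labelled GFP-Spike was left out. It had 0 reads at day 60 and at day 90, and 15976 and 3515 reads on chips a and b. What this row measures was not tested. Seurat 5.3.0 integrated the days on 1000 variable genes per day (2420 used, 6 members left out, 20 dimensions, resolution 0.6). A cluster was named when at least 3 genes of a list of 10 were 2-fold higher than in the other cells (5 CPM added) and read in at least 20% of its cells. Reads were summed per chip, and edgeR 4.0.16 (quasi-likelihood, TMM, 1 residual degree of freedom) was run with DESeq2 1.42.0 as an alternative, in R 4.3.3. Shares of cells were computed after thinning to 50000 reads, which left out 6 cells. Intervals are at 95% (scipy 1.17.1). Named genes were all 9 members, other retinoid genes that passed the rule of size (at most 4 per group) or a test, and the 3 genes of most similar level per member. A few values that these rules would name are not reported here. Tested on simulated data for day 200 against day 60 (16689 genes, dispersion 0.1), edgeR recovered 44 of 100 genes changed 4-fold and 92 of 100 changed 8-fold, with 5 false calls. The common dispersion fitted to the data was 0.823, well above the simulated one, so these rates do not carry over to the real comparison. The clustering and naming were likewise tested on simulated data.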

Additional observations from a re-analysis of the deposited data

Results flagged for a closer look

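Levels of a gene in different classes lay on opposite sides of day 60 on both day 200 chips for RBP4 and STRA6. RBP4 in RGC-like cells was at 57.7 and 0.406 CPM on chips a and b of day 200, against 0.26 CPM at day 60. On chip a, 1 of the 12 RGC-like cells held its reads. The chip b and day 60 levels, from 20 and 91 cells, were both under 1 CPM, so their order is uncertain. RBP4 in cone-like cells was at 125 CPM and 98.0 CPM against 240.4 CPM. STRA6 was at 76.6 CPM and 79.8 CPM in the unnamed cluster against 45.1 CPM at day 60, but at 202 and 193 CPM in Müller glia-like cells against 224 CPM, at 6.14 and 0 CPM in RGC-like cells against 23.2 CPM, and at 27.5 and 22.6 CPM in cone-like cells against 58.7 CPM. The differences between classes were not tested.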

How the results depend on the processing

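At an adjusted p under 0.05, edgeR called 0 genes over all cells in each comparison of days, and still 0 without TMM or without a filter, but DESeq2 called 2719, 1989 and 1277 (day 200 against 60, day 90 against 60, day 200 against 90), edgeR on rows of at least 10 CPM 253, 89 and 21, and on rows above 0 on all 4 chips 166, 52 and 2. In Müller glia-like cells the 30 calls became 553 with DESeq2, 64 without a filter, 171 at 10 CPM and 51 without TMM, and in cone-like cells the 62 became 382 with DESeq2, 6 at 10 CPM and 33 without TMM. The log2 fold change of STRA6 at day 200 turned to 0.022 without a filter and 0.051 without TMM, and that of RBP4 at day 90 to −0.0020 with DESeq2. By the rule of size, 1198 genes were higher and 929 lower. Higher genes numbered 616 with 5 CPM added (RDH5 lost), 724 at 10 CPM, and 2136 and 2374 without chip a or chip b. Lower genes numbered 383 with 5 CPM added, 1680 without a filter, 266 at 10 CPM, 431 on rows above 0 and 3033 without chip b. Without chip a, 1 member (RBP4) was lower. The cause was not tested.

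STRA6 in mitotic-like cells was at 265 CPM as a mean over cells and 223 CPM without its 3 highest cells. Counted at 1 read or more after thinning, in place of 5 reads or more, RLBP1 cells held RBP3 in 11.4% and RBP4 in 4.89%. Of the 3 most similar genes, 0 were among the 20 nearest over single cells for LRAT, RDH10, RBP4 and STRA6, and 1 for RGR. The alternatives with rows above 0 and without the 3 highest cells were chosen after seeing the data. No paired analysis was possible because day 60 and day 90 have 1 chip each, and same-numbered columns are not replicates. Leaving out a day 200 chip left no residual degrees of freedom, so no test was made.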
